A study of Homo sapiens with 24 samples.

Results

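The transcripts that encode the enzymes making and using alpha-ketoglutarate were examined for N6-methyladenosine (m6A) in 6 cell populations of human pancreatic differentiation. The 9 genes were IDH1, IDH2, IDH3A, IDH3B, IDH3G, OGDH, OGDHL, GLUD1 and GOT1, chosen for their enzymatic role and not for a measured value. A peak belonged to a gene when its Ensembl identifier stood in the gene field of the deposited peak list. By this rule 37 of 228472 peaks belonged to the 9 genes. The annotation holds 20046 protein-coding genes. Of the 9 genes, 8 carried at least 1 peak, and IDH2 carried none in any list used here.

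m6A-seq precipitates RNA fragments with an antibody against m6A (IP) and sequences them beside fragments taken before precipitation (input). All cells came from MEL1, a human embryonic stem cell line that carries a green fluorescent protein reporter at the insulin gene. Batch 1 of the labels held the pluripotent cells (hPSC), the definitive endoderm derived from them (DE), pancreatic progenitors (PP) and organoids resembling human islets (hILO), with unedited ALKBH5, mRNA as starting material and a SYSY antibody. Batch 2 held a wild type (WT PP) and an ALKBH5 knockout (A5-KO PP) form of PP, with total RNA, a Millipore antibody, input depleted of rRNA and another library kit. The A5-KO cells were 1 homozygous line in which CRISPR-Cpf1 had made insertions or deletions in the first ALKBH5 exon. A feature of that line and the loss of the gene therefore cannot be told apart. Differentiation ran through activin A with CHIR99021, activin A alone, KGF, then retinoic acid with KGF, LDN-193189, GDC-0449 and vitamin C, then EGF with LDN-193189 and vitamin C. Aggregates were kept for hILO in a medium with zinc sulfate, heparin, an inhibitor that the labels name by a number, T3, LDN-193189, compound E and vitamin C. The study's methods add a later medium for hILO, which lacked LDN-193189 and compound E and held N-acetyl cysteine and trolox. Batch and experiment cannot be told apart, so enrichment was compared only within a batch.

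One list was deposited for each population, called on 2 IP and 2 input libraries together. No value per library was used here, so no spread between replicates and no test could be had, and each difference below is set only beside its counting error. The input reads inside the peaks of a list numbered between 6987612 in PP and 28463998 in hILO, and the median input reads of a peak lay between 33 in A5-KO PP and 302 in hILO. The markers of each stage carried peaks in its list for 2 of 3 hPSC markers (SOX2 had none), 3 of 3 DE markers, 5 of 5 PP markers in each of PP, WT PP and A5-KO PP, and 4 of 4 hILO markers. The 2 hPSC markers with peaks, POU5F1 and NANOG, carried them in DE as well, on more input reads there (1087 in all, against 132 in hPSC). Of the hILO markers, INS, GCG and SST carried peaks in hILO alone, whereas CHGA carried peaks in every list. The CHGA peak in hILO held 25 input reads. Its peaks elsewhere held 218 (hPSC), 14 (DE), 827 (PP), 653 (WT PP) and 2105 (A5-KO PP), so CHGA did not mark hILO here. The hepatic markers ALB and AFP carried peaks in hILO (2 of 2), and AFP alone in the lists of batch 2, on 0 input reads in WT PP and 88 input reads in A5-KO PP. ALKBH5 carried 4 peaks on 289 input reads in WT PP, and 5 peaks on 1 input read in A5-KO PP.

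Alpha-ketoglutarate (2-oxoglutarate) is an intermediate of the tricarboxylic acid cycle and the cofactor that ALKBH5 and other iron-dependent dioxygenases consume when they remove a methyl group. It is made from isocitrate by the isocitrate dehydrogenases, namely IDH1 in the cytosol, IDH2 in mitochondria and the mitochondrial NAD-dependent enzyme built from the IDH3A, IDH3B and IDH3G subunits. It is also made from glutamate by glutamate dehydrogenase (GLUD1), exchanged with glutamate by the cytosolic aspartate aminotransferase (GOT1), and oxidised by the complex whose first component is OGDH or its tissue-restricted relative OGDHL. m6A is written on nuclear RNA mainly at the motif DRACH, where D is any base but C, R a purine and H any base but G, and it gathers in long exons and around the stop codon.

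The motifs of the sites on which the results turn are shown first. For all but GLUD1, whose peak was called in A5-KO PP alone, the peaks of several populations met on the same letters. Each line gives 25 nt of GRCh38 on the transcript strand, 5′ to 3′, with 1 DRACH motif in capitals. Only motifs inside the part of a site common to all its peaks are shown, and a match says only where such letters stand.
GOT1 3′UTR, chr10:99397430-99397454, minus strand: gacacttgcaGGACTgaaaggctgc
OGDH exon 2, upstream motif, chr7:44624347-44624371, plus strand: tttcatttaaGGACTtgtgctgcta
OGDH exon 2, downstream motif, chr7:44624428-44624452, plus strand: gcagcagctaGGACAtttcaacaga
OGDH 3′ end, chr7:44709030-44709054, plus strand: tgcattggctTGACCcataaactaa
OGDHL 3′UTR, chr10:49735033-49735057, minus strand: gaatctaccaGGACTgagggagcca
IDH3A stop codon, chr15:78168993-78169017, plus strand: agatttagatTAACActtctacaac
GLUD1 3′UTR, chr10:87051687-87051711, minus strand: taacttctgcAGACCtatcacaagt

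The sites found in all 6 populations, in GOT1 and in OGDH exon 2, held the GGAC core, with 1 such motif among 6 DRACH matches in GOT1 and 2 among 6 in OGDH. The OGDHL site held 1 GGAC motif among 4 DRACH matches. The sites at the OGDH 3′ end (4 DRACH), the IDH3A stop codon (2) and the GLUD1 3′UTR (4) held none. Over the 37 peaks, 34 held a DRACH match and 21 a GGAC match. Of all peaks, 89.0% (PP) to 92.9% (hILO) held DRACH and 51.3% (PP) to 57.7% (hPSC) held GGAC. The density of DRACH in the 37 peaks was 2.9 per 100 nt on the transcript strand and 1.58 per 100 nt on the opposite strand. For all peaks it lay between 2.17 and 2.27 on the transcript strand and between 1.55 and 1.72 on the other. Peaks of 1 gene in several lists cover the same letters, so these 37 peaks are not 37 separate observations.

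The share of the 9 genes with a peak was near the annotation-wide share in hPSC, PP, hILO and WT PP and lower in DE and A5-KO PP. In hPSC 5 of the 9 genes carried a peak (7 peaks), where 60.2% of all protein-coding genes did. DE had 3 genes (5 peaks, background 57%) and PP 4 genes (7 peaks, background 52.2%). In hILO 5 genes carried 6 peaks (background 57.7%), in WT PP 6 genes carried 8 peaks (background 62.8%), and in A5-KO PP 4 genes carried 4 peaks (background 69.7%). With 9 genes, 1 gene more or fewer moves a share by more than 4 of these 6 gaps. Of the 37 peaks, 22 had the p below 1e-05 that the methods state as a threshold, and the lists went beyond it. As deposited, A5-KO PP had the fewest peaks on these genes and the longest list, with 55219 peaks against 43312 in WT PP. With p below 1e-05 it had 3 peaks, as did hPSC, DE and WT PP, and with an IP/input ratio of at least 3 it had 4, against 3 in DE and hILO. OGDH and GOT1 were the 2 genes with a peak in all 6 lists, which 37.7% of protein-coding genes had, and 18.2% of protein-coding genes had none in any list, as IDH2.

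**Figure D1:**
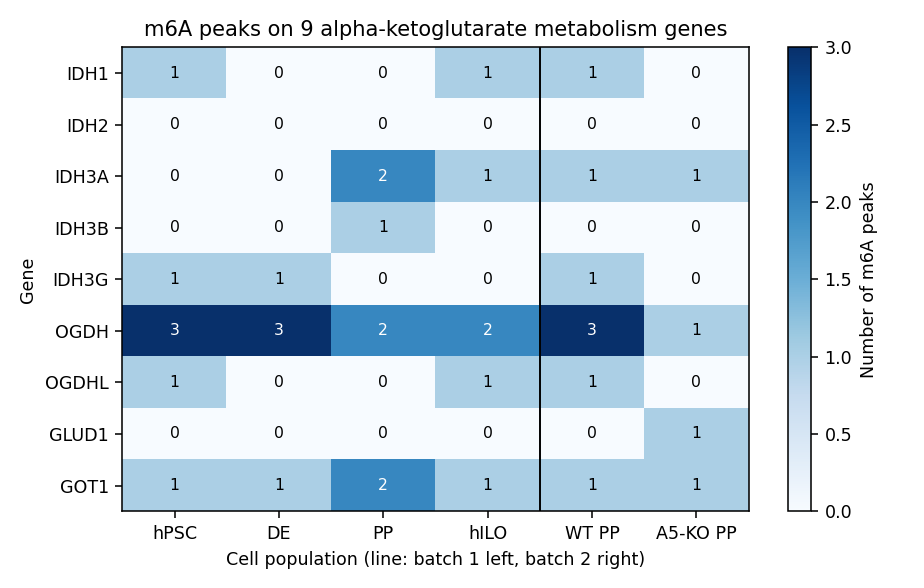
The number of m6A peaks on each of the 9 genes (rows) in each of the 6 populations (columns), with darker blue for more peaks and a line between the batches. OGDH and GOT1 are the rows with no 0, and the IDH2 row holds only 0.

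By enzyme, the first component of the oxoglutarate dehydrogenase complex carried most peaks, 17 over OGDH and OGDHL. The 5 isocitrate dehydrogenase genes carried 12 between them, 9 of these on the IDH3 subunits, and the glutamate enzymes GLUD1 and GOT1 carried 8. A peak is placed below by its middle on the MANE Select transcript of its gene. By this measure 21 peaks lay in the 3′UTR, 13 in the coding sequence (CDS) and 0 in the 5′UTR, and 3 lay in exons that this transcript lacks. Of the 34 peaks on it, 22 reached the last exon, 3 covered the stop codon and 7 covered the start codon. The 3 were all of 1 IDH3A site. The 7 were 1 OGDH site in 6 lists and the hILO peak of IDH1. The placement of all peaks of the lists was not computed here. The 37 peaks fell on 17 sites, of which 10 were found in 1 list, 2 in 2, 2 in 3, 1 in 5 and 2 in 6. In their own lists the members were ordinary in strength, with median percentiles of log2 enrichment between 41.3 (WT PP) and 60.3 (A5-KO PP). The medians of the batch 1 lists were 52.9 for hPSC, 48.4 for DE, 56.8 for PP and 47.2 for hILO.

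**Figure D2:**
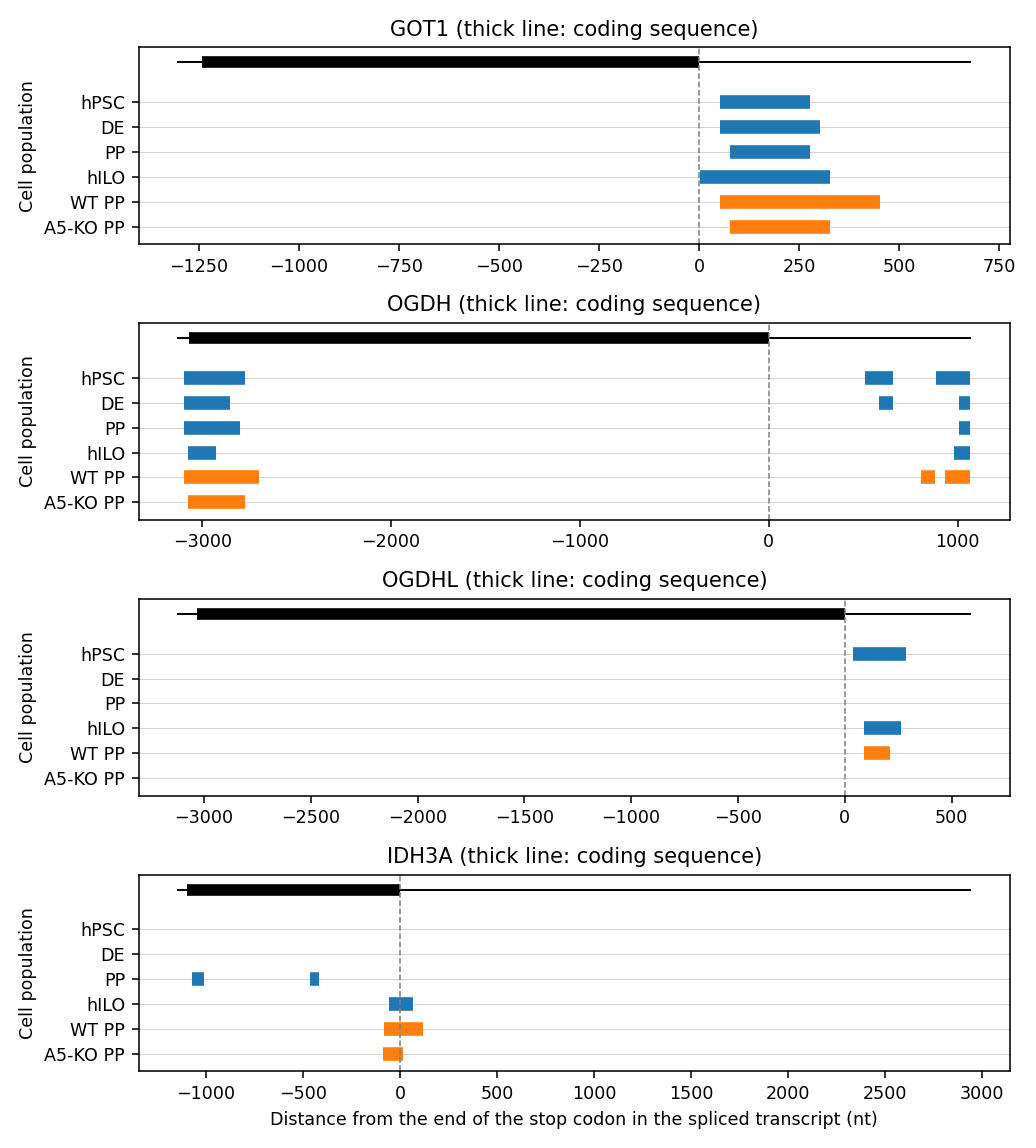
Peaks on the spliced transcripts of GOT1, OGDH, OGDHL and IDH3A, with the distance from the end of the stop codon in nt on the horizontal axis, 1 row per population, and batch 1 in blue and batch 2 in orange. The GOT1 peaks stack in the 3′UTR in 6 of 6 populations and the OGDH peaks stack at the start codon, while the OGDH 3′ end has no bar in A5-KO PP.

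GOT1 (ENSG00000120053, chr10, minus strand) carried a site found in 6 of 6 lists whose values lay close together within batch 1 and far apart within batch 2. Its 6 peaks lay in the 3′UTR in the last of 9 exons, and they shared chr10:99397270-99397469. The peaks began between 3 nt (hILO) and 78 nt (PP and A5-KO PP) after the stop codon, and the GGACT printed above stands 105 nt after it. The log2 enrichment of IP over input was 2.04 for hPSC, 1.97 for DE, 1.75 for PP and 1.71 for hILO, on 418, 500, 565 and 1258 input reads. It thus stayed above the middle of each batch 1 list, at percentiles 69.7, 66.7, 56.8 and 60.9. The differences between neighbouring stages were -0.06 ± 0.11 (counting error), -0.22 ± 0.10 and -0.05 ± 0.08, and that from hPSC to hILO was -0.33 ± 0.09, with a 95% counting interval from -0.50 to -0.16. The decline over the series thus exceeded counting error and lay at the 49th percentile of all hPSC to hILO differences, whose median was -0.32. In batch 2 the site was shallow, with 15.5 (WT PP) and 12.4 (A5-KO PP) input reads per 100 nt, against 186 to 387 in batch 1. A further GOT1 peak in PP alone (chr10:99420534-99420583, log2 enrichment 1.22, 42 input and 106 IP reads) lay in an exon of 1 noncoding GOT1 transcript.

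OGDH (ENSG00000105953, chr7, plus strand), the catalytic first component of the dehydrogenase complex, carried 14 peaks on 4 sites. The site in exon 2 was found in 6 of 6 lists and covered the start codon in each, beginning between 27 and 4 nt before it. At this site the log2 enrichment was 1.26 for hPSC, 1.70 for DE, 1.93 for PP and 1.68 for hILO, on 37, 55, 190 and 152 input reads. The value was lowest in hPSC, at percentile 11.5 of its list, and highest in PP, at percentile 65.9. The neighbouring differences were 0.44 ± 0.34, 0.23 ± 0.26 and -0.26 ± 0.18, each with a 95% counting interval that includes 0. From hPSC to hILO the difference was 0.42 ± 0.29, with an interval from -0.14 to 0.98. In batch 2 the same site was well covered, at 927 input and 4947 IP reads (WT PP) and 1036 and 4235 (A5-KO PP).

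The OGDH transcript also carried 3 sites in its 3′UTR, 2 of which recurred. The last one ended at the annotated 3′ end of the gene and was found in 5 lists, with a common part at chr7:44709007-44709066. Its log2 enrichment was 1.65 in hPSC (129 input reads), 1.96 in DE (74), 1.91 in PP (56), 1.31 in hILO (165) and 3.48 in WT PP (41). The neighbouring differences in batch 1 were 0.31 ± 0.24, -0.05 ± 0.30 and -0.60 ± 0.26. The first turned to -0.10 when the counts were scaled by 1 constant per list. The last of these, PP to hILO, had an interval that excluded 0 on the authors' scale, and was -0.12 on the scale of 1 constant per list. No peak was called there in A5-KO PP, and the reads of that list at this place were not analysed here. The site further upstream (common part chr7:44708582-44708656) was called in hPSC and DE, at 2.19 and 1.21, with a difference of -0.98 ± 0.37. With 1 constant per list it was -0.79, or -0.58 with a pseudocount of 5. Its input coverage was very unlike, with 10.7 reads per 100 nt in hPSC and 3170 in DE, where the 3′ end of the same transcript had 123. The remaining site (chr7:44708807-44708881, 2.24) was called in WT PP alone.

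OGDHL (ENSG00000197444, chr10, minus strand), the relative of OGDH, carried 1 site in its 3′UTR, in 3 lists, with a common part at chr10:49735016-49735140. The log2 enrichment was 1.78 in hPSC (32 input reads), 0.84 in hILO (404 reads) and 5.32 in WT PP (578 input and 6877 IP reads). DE, PP and A5-KO PP had no OGDHL peak. From hPSC to hILO the enrichment fell by 0.94 on the log2 scale, with a counting error of 0.28 and an interval from -1.49 to -0.39. With 1 constant per list the difference was -0.63. The hILO peak stood at percentile 8.22 of its list and the WT PP peak at 78.1. Between hPSC and hILO 2.49% of 17259 shared peaks of all genes rose by at least 1 and 15.2% fell by at least 1, and none of the 4 shared peaks of the 9 genes did either.

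The IDH3 subunits, which form the NAD-dependent enzyme of the cycle, carried peaks on 6 sites, none of them found in more than 3 lists. IDH3A (ENSG00000166411, chr15, plus strand) is the catalytic subunit. A site over its stop codon was called in hILO (2.54, 112 input and 564 IP reads, percentile 95.4), in WT PP (1.04, 18 and 76 reads, percentile 10.3) and in A5-KO PP (5.20, 10 and 97 reads, percentile 63.5). The common part at chr15:78168948-78169022 lies opposite an exon of ACSBG1, and reads from the other strand are kept apart only as far as the strand setting of the counting held. In PP a pair of other IDH3A peaks was called, in the CDS at 1.09 (73 input reads) and 2.14 (24 input reads). IDH3B (ENSG00000101365), a regulatory subunit, carried 1 peak, in PP at chr20:2663931-2664005 in the CDS, on 366 input and 1483 IP reads. Its log2 enrichment of 0.75 stood at percentile 2.66 of that list, near the lowest value kept.

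IDH3G (ENSG00000067829, chrX, minus strand), the other regulatory subunit, had a CDS site in exon 8 in hPSC and DE. It held 1771 input and 18502 IP reads in hPSC at a log2 enrichment of 1.90, and 139 and 282 reads in DE at 1.08. The difference of -0.82 ± 0.15 exceeded counting error and stayed below 1 in size. It was -0.45 with 1 constant per list. Of the hPSC peak, 118 of 150 exonic nt lay on the MANE Select transcript, and of the DE peak 43 of 75 nt. The windows compared thus differed in length, and the only DRACH match in their common part lay outside that transcript. The other IDH3G peak, in WT PP (3.96, 333 input and 1179 IP reads), lay in exons of transcripts without an annotated CDS.

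IDH1 (ENSG00000138413, chr2, minus strand), the cytosolic NADP-dependent enzyme, carried 3 peaks on 3 places. The hPSC peak (1.11, 39 input and 266 IP reads) lay outside the MANE Select transcript and opposite IDH1-AS1. The hILO peak covered the start codon at 0.77 (1148 input and 1538 IP reads, percentile 5.50). The WT PP peak lay in the 3′UTR at 2.91 (95 input and 146 IP reads). IDH2 (ENSG00000182054, chr15, minus strand), its mitochondrial counterpart, had no peak although its 2658 nt transcript holds 49 DRACH and 13 GGAC letters, a density of 1.84 DRACH per 100 nt against 1.86 in IDH1 and 2.22 in GOT1.

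GLUD1 (ENSG00000148672, chr10, minus strand), the mitochondrial glutamate dehydrogenase, had its 1 peak in A5-KO PP. It lay in the 3′UTR at chr10:87051627-87051726, from 25 to 124 nt after the stop codon. It held 432 IP reads on 535 input reads, and its deposited log2 enrichment of 2.55 (percentile 25.4) is above 0 because the authors' estimate is not the plain ratio of these counts. GLUD1 has a close copy, GLUD2, and reads may be divided between them, so the assignment is uncertain. GLUD2 carried 2 peaks in hILO and 2 in WT PP, where GLUD1 had none, and 0 in A5-KO PP.

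**Figure D3:**
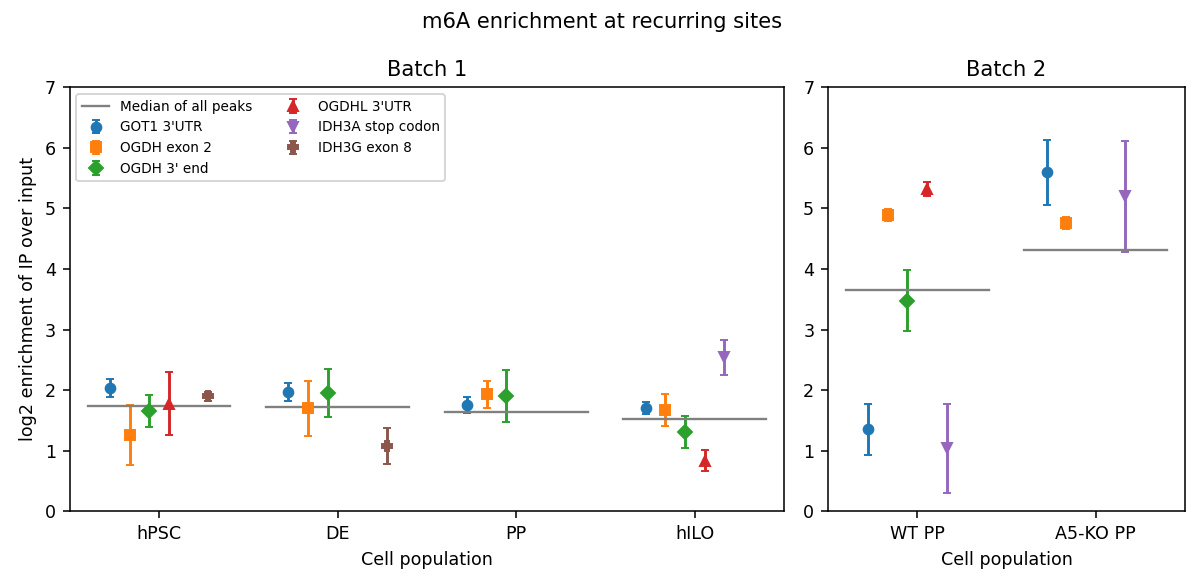
The deposited log2 enrichment of 6 recurring sites in each population, with batch 1 on the left and batch 2 on the right. Bars give 95% counting intervals, grey lines the median of all peaks of a list, and the batches share no scale. The GOT1 points stay between 1.71 and 2.04 in batch 1, and in batch 2 the GOT1 and IDH3A points stand far apart between WT PP and A5-KO PP while OGDH exon 2 does not.

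Carry-over between stages was asked next, since a peak may be inherited from the stage before. A peak counted as shared when over 50% of its exonic length was covered on its strand by peaks of the other list. In DE 5 of 5 member peaks were shared with hPSC (64.7% of all DE peaks were), in PP 3 of 7 with DE (57% of all), and in hILO 3 of 6 with PP (45.6% of all). In the first transition IDH3G, GOT1 and the 3 OGDH sites made up the 5. In the later transitions the 3 shared peaks were the GOT1 3′UTR, the OGDH start codon and the OGDH 3′ end. Looked at from the earlier list, DE covered 2 of 7 hPSC peaks, PP 3 of 5 DE peaks and hILO 2 of 7 PP peaks. With the share required in both directions, 2 of the 5 DE peaks stayed shared, so the count of 5 rests on the choice of the later peak as reference. OGDHL and IDH1 left the list after hPSC and were called again in hILO, IDH1 at another place.

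Of the 11 shared member peaks of the 3 stage transitions, none differed by 1 or more on the log2 scale, the size at which a difference is called here. From hPSC to DE 4.45% of all shared peaks rose and 6.9% fell by that much, from DE to PP 7.35% rose and 8.21% fell, and from PP to hILO 4.11% rose and 13.2% fell. At such shares 11 peaks would be few in either direction in any case. The OGDH site called in hPSC and DE and the IDH3G site came nearest, both lower in DE.

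PP and WT PP are the same cell type in 2 batches. Of 7 sites in PP and 8 in WT PP, 3 were in both, again the GOT1 3′UTR, the OGDH start codon and the OGDH 3′ end. By the share of exonic length, 3 of 7 member peaks of PP were covered by WT PP (57.9% of all PP peaks were) and 1 of 8 of WT PP by PP (22.4% of all). The 4 sites of PP alone and the 5 of WT PP alone came from preparations that differed in RNA, antibody and kit, and these cannot be told apart.

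The comparison of WT PP with A5-KO PP asked how the transcripts of the cofactor's own metabolism stood when the demethylase was absent. Of the 4 peaks in A5-KO PP, 3 were shared with WT PP, as were 46.8% of all A5-KO PP peaks. Of the 8 in WT PP, 3 were covered in A5-KO PP, against 50% of all. The 5 without a counterpart were the OGDHL 3′UTR, the OGDH 3′ end, the second WT PP site in the OGDH 3′UTR, IDH1 and IDH3G. The OGDHL site among them was the strongest member peak of WT PP, at 5.32 on 6877 IP reads. A peak missing from a list was not called there, and the reads at its place in that list were not analysed here.

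At the 3 shared sites, OGDH and the others parted. OGDH at the start codon had log2 enrichments of 4.89 (WT PP) and 4.76 (A5-KO PP), a difference of -0.13 ± 0.07 on 927 and 1036 input reads. With 1 constant per list this difference was 0.11, of the other sign. GOT1 went from 1.35 (62 input and 177 IP reads) to 5.60 (31 and 238 reads), higher by 4.24 ± 0.35. IDH3A at the stop codon went from 1.04 to 5.20, higher by 4.16 ± 0.60 on 18 and 10 input reads. Of the IDH3A peaks, 201 of 275 exonic nt (WT PP) and 104 of 275 (A5-KO PP) lay on the MANE Select transcript. The rest lay in exons of other IDH3A transcripts. The peaks of the 5 PP markers together held 26074 input reads on the WT side and 15367 on the A5-KO side (NKX6-1 2744 and 592, PDX1 1255 and 2494). All peaks together held 19034654 and 12716287. Of the 3 DE markers, SOX17 held 1181 and 2, FOXA2 9066 and 3968, and CXCR4 778 and 795. The part of these differences between the populations in the results was not tested. In all, 2 of 3 shared member peaks were called higher and 0 lower, where 38% of all 25833 shared peaks were called higher and 28.9% lower.

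The size of these 2 differences depended on the scale. The log2 ratio of the deposited counts rose by 1.40 in GOT1 and 1.14 in IDH3A, and the remaining 2.84 and 3.03 lay in the offset between the authors' estimate and that ratio. In WT PP the offsets were -0.15 for GOT1 and -0.98 for IDH3A, against a median of 2.09 over all WT PP peaks, and in A5-KO PP they were 2.70 and 2.05 against 2.58. Neither WT PP peak had a p below 1e-05. Over all shared peaks the median change of that offset was 0.22, with quartiles at -0.31 and 0.95. With 1 constant per list in place of the authors' offset, the differences were 1.90 in GOT1 and 1.63 in IDH3A. Both remained higher by more than 1, where 41.9% of all shared peaks were higher and 20.5% lower by that much on this scale. The median over all shared peaks was itself 0.61 on it, against 0.24 on the authors' scale, so the 2 sites stood less far above the rest. The cause of the unlike offsets was not tested. OGDH was the one site of the 3 that held 50 or more input reads on both sides. Large differences were common wherever input was low. Among shared peaks with 10 to 49 input reads in the list with fewer, 35.5% were higher and 30.9% lower by at least 1, against 16.5% and 17% among those with 200 or more.

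**Figure D4:**
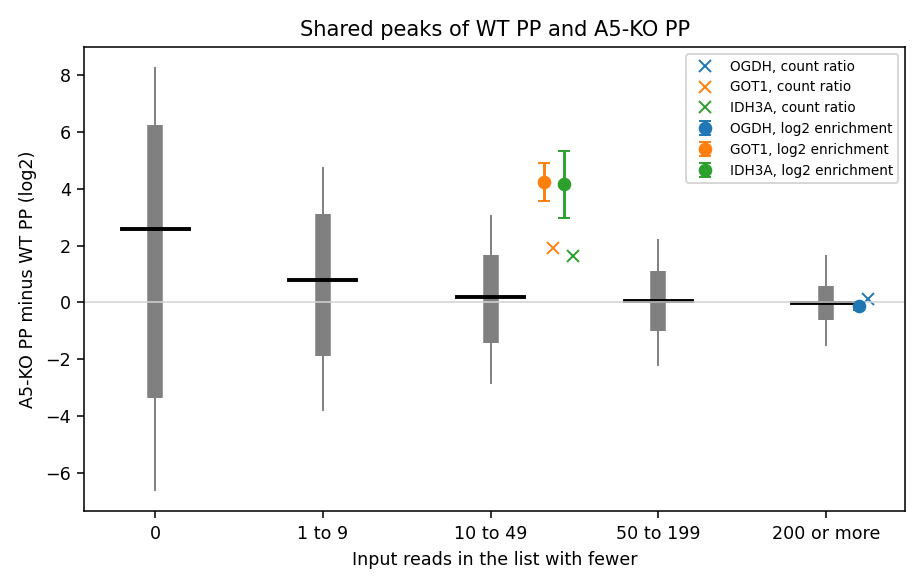
Difference in log2 between A5-KO PP and WT PP at shared peaks (vertical axis), by the input reads of the list with fewer (horizontal axis). Grey boxes run over the quartiles of all shared peaks, thin lines over the 10th to 90th percentiles and black lines mark medians. Dots with 95% counting bars give the deposited estimate and crosses the count ratio with 1 constant per list, for OGDH near 0 and for GOT1 and IDH3A above 1 on both scales.

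A wider list of 41 genes was taken from the same chemistry, with the other aminotransferases, glutaminases, subunits and neighbours in the tricarboxylic acid cycle, and carriers of alpha-ketoglutarate or glutamine. The hPSC list had peaks on 23 of these genes, the DE list on 29, the PP list on 21 and the hILO list on 29, while WT PP had 28 such genes against 25 for A5-KO PP. The number of their peaks ran the other way, 58 (WT PP) and 68 (A5-KO PP), as did the whole lists, with 43312 and 55219 peaks. Of the 41 genes, 14 carried a peak in each of the 6 lists and 3 in none, against 37.7% and 18.2% of all protein-coding genes. The shares ran on both sides of the background of all protein-coding genes given above.

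**Figure D5:**
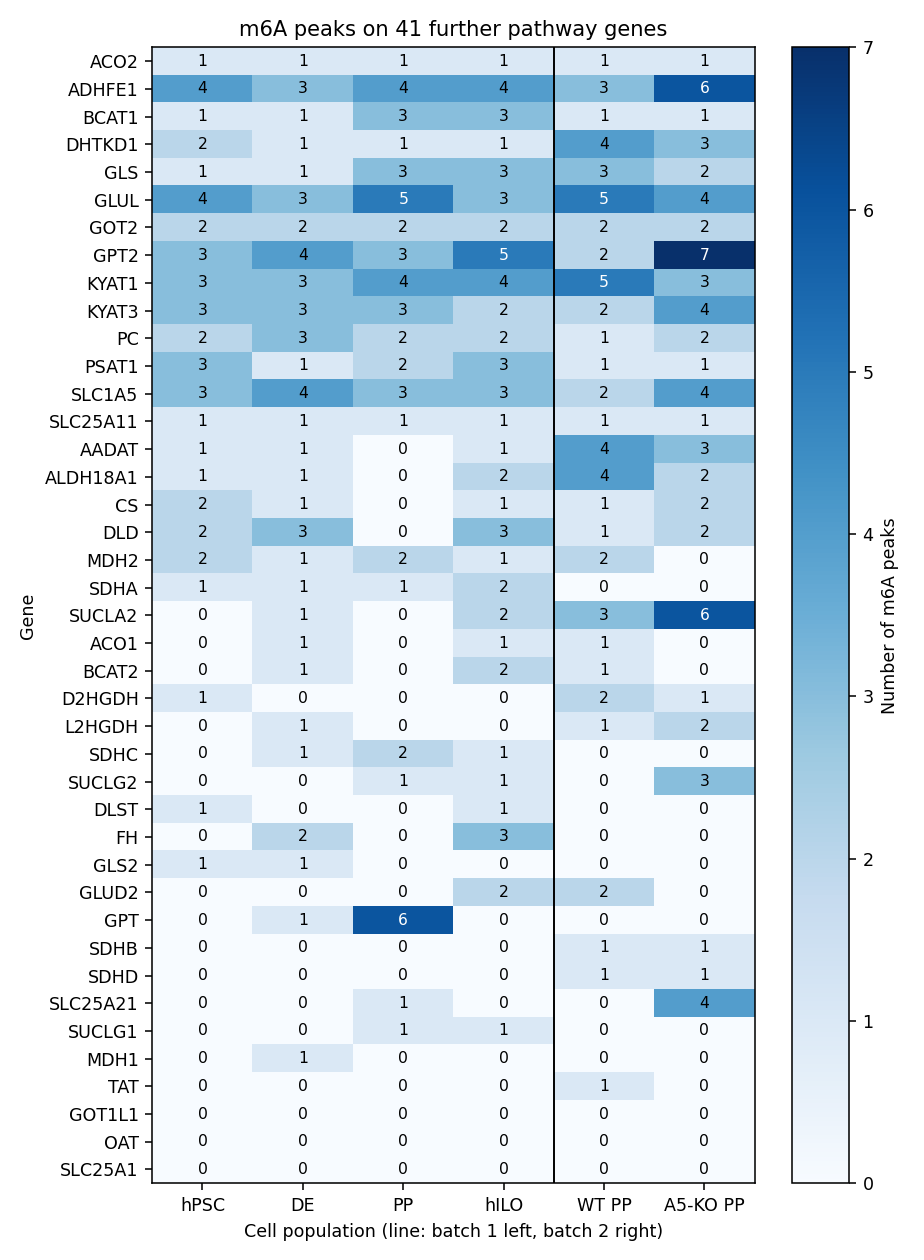
The number of m6A peaks on each of 41 further pathway genes (rows, ordered by the number of lists with a peak) in the 6 populations (columns), with a line between the batches. The top 14 rows have a peak in 6 of 6 lists, and the bottom 3 rows, GOT1L1, OAT and SLC25A1, have none.

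In stage transitions few shared peaks of the wider genes were called. From hPSC to DE 1 of 27 was higher and 1 lower by at least 1 (4.45% and 6.9% of all shared peaks), from DE to PP 0 and 2 of 27 (7.35% and 8.21%), and from PP to hILO 0 and 1 of 23 (4.11% and 13.2%). At these shares only a few calls among so many pairs would be ordinary. From WT PP to A5-KO PP 8 of 37 were higher and 13 lower, with a median of 0.34, against 38% and 28.9% for all genes. With 1 constant per list the balance turned, to 14 higher and 9 lower, against 41.9% and 20.5% for all genes. Of the 21 calls, 4 changed sign on that scale, and these were picked out after their values were seen. They were the lower calls of KYAT3 (-2.97 to 4.24), a second peak of GOT2 (-3.80 to 1.26), CS (-1.06 to 1.22) and a second peak of DHTKD1 (-3.70 to 0.21), with 0, 2, 31 and 7 input reads in A5-KO PP. In all these comparisons 1 peak of the earlier list could enter several pairs, as in SLC1A5, so pairs are not all separate peaks. In KYAT3 and CS 1 WT PP peak gave pairs of opposite sign, at 4.92 and -2.97, and at 0.95 and -1.06. Where both sides held 50 or more input reads, 3 of 17 were higher and 2 lower, against 22.7% and 21.4% of all shared peaks of that depth.

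Among the latter, the peak of DHTKD1, which encodes a relative of OGDH in lysine breakdown, was higher by 1.89 ± 0.17 (3.98 with ALKBH5 and 5.87 without). GPT2, the mitochondrial alanine aminotransferase, was higher by 1.49 ± 0.15 (3.60 and 5.09). GLUL, which makes glutamine from glutamate, appeared on both sides. Its peak at chr1:182388752-182388826 was higher by 1.24 ± 0.08 (2.39 and 3.63), and that at chr1:182384423-182384647 was lower, at -1.70 ± 0.10 (4.55 and 2.85). The WT PP peak of the latter pair was also shared with a second A5-KO PP peak, chr1:182384273-182384397, with a difference of 0.79 ± 0.12 (5.33), so 1 WT PP peak gave pairs of opposite sign. SDHB, a subunit of succinate dehydrogenase, was lower as well, at -1.70 ± 0.19 (3.76 and 2.06). The next lowest, GOT2, the mitochondrial partner of GOT1, differed by -0.77 ± 0.19 (2.88 and 2.11), below the size called here, and by -0.30 with 1 constant per list. The other 5 of these peaks kept their sign and a size above 1 on that scale, from -1.49 (GLUL) and -1.18 (SDHB) to 1.82 (GPT2).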

How the data were processed

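m6A-seq of 24 libraries was deposited as 6 peak lists, 1 per population, each called on 2 IP and 2 input libraries. According to the study's methods and processing notes, the authors used fastp for trimming, HISAT2 for alignment to GRCh38 and exomePeak2 for peaks, with thresholds of 1.5 for IP/input and 1e-05 for p. In the deposited lists adjusted p stayed below 0.05 instead. HOMER is also named there. The authors deposited pooled read counts of IP and input, which may be sums or means, the log2 enrichment of exomePeak2, p-values and adjusted p-values, per the file headers. A deposited score column, which the authors derived from the adjusted p, was not used. No count per library was used, so no model was fitted.

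Spans were reduced to exons of the assigned gene (GENCODE 44) with Python 3.11.15, numpy 2.4.6 and pandas 2.3.3. Shared peaks were paired with the peak sharing most bases. Counting errors came from the pooled counts as sums with 0.5 added, and count ratios used a pseudocount of 1. They cover counting error only, since PCR copies are not independent molecules. Overlap, pairing and calling were checked on simulated lists. Coordinates are 1-based. The members, the wider list, the rule for naming its genes (3 largest rises and 3 largest falls on ALKBH5 loss, given 50 input reads in each list) and the definitions were chosen with earlier results of these data known. Alternatives covered peak thresholds, input depth, overlap and scale. The scale of the wider list was varied after seeing the data.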

Additional observations from a re-analysis of the deposited data

How the results depend on the processing

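Of 116 recomputed counts, 90 stayed within 1.5 times the reported count and 26 moved. With p below 1e-05, genes with a peak were 3 in hPSC and 3 in WT PP, and peaks were 3 for hPSC, 3 for DE, 4 for PP and 3 for WT PP. With p below 1e-10, genes were 3 for hPSC, 2 for PP, 3 for WT PP and 2 for A5-KO PP, and peaks were 3 for hPSC, 2 for DE, 2 for PP, 3 for WT PP and 2 for A5-KO PP. With an IP/input ratio of at least 3, peaks were 3 for DE, 4 for PP and 3 for hILO, and genes were 3 for hILO. Of the DE peaks, 2 were inherited from hPSC when the overlap was required in both directions, and counted from the earlier list 2 of 7 hPSC peaks were covered by DE. With 50 or more input reads on both sides, 1 shared member peak of WT PP and A5-KO PP remained and 0 were called. With 1 constant per list, an alternative chosen after seeing the data, shared peaks of the wider list called higher were 2 from hPSC to DE, 2 from DE to PP and 14 from WT PP to A5-KO PP, and those called lower from DE to PP were 1. Called differences of that list that changed sign were those of KYAT3 (4.24), GOT2 (1.26), DHTKD1 (0.21) and CS (1.22). No called difference of the 9 genes did, while 3 uncalled ones did, namely OGDH exon 2 from WT PP to A5-KO PP (0.11), the OGDH 3′ end from hPSC to DE (-0.10) and the GOT1 3′UTR from PP to hILO (0.0074). The cause was not tested. No paired analysis was possible because each list pools its libraries, and for the same reason leaving out a replicate, the replicate block and a count model were not run. In batch 2 the shared GOT1 and IDH3A sites and the OGDH 3′ end rest on 10 to 62 input reads.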
